A study of Homo sapiens with 74 samples.

Results

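The promoters of 45 genes for splicing factors and heterogeneous nuclear ribonucleoproteins (hnRNPs) were examined for peaks of transfected zinc-finger proteins (ZFPs). The genes were taken from a fixed list of names, with genes whose ORF the study transfected left out, and are 45 of the 20046 protein-coding genes of GENCODE 44. They comprise 12 SR proteins, 11 Sm and U1 or U2 snRNP proteins, 9 subunits of SF3A or SF3B, 11 hnRNPs and 2 other factors, U2AF2 and PRPF8. Cut&Run, in which an antibody-tethered nuclease releases the DNA bound by a protein for sequencing, was carried out with a V5 antibody in HEK293T, a human embryonic kidney cell line. Each of 36 groups expressed 1 ZFP with a C-terminal V5 tag from an EF1-alpha promoter plasmid for 48 h, with 2 biological replicates (1 culture well each), and un-transfected HEK293T cells gave 2 mock IP samples. All groups share the cell line, the antibody and the transfection, and binding was thus measured for exogenous and not endogenous ZFPs. The 72 peak lists held 92122 peaks, between 15 and 8702 per list with a median of 631, and read totals are unknown here. A gene was called for a ZFP where the edge of a peak in either replicate lay within 1 kb of any annotated transcription start site (TSS) of the gene. The fold of a peak is its signal over the mock IP of the same batch.

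Splicing is carried out by the spliceosome, which is built from small nuclear ribonucleoproteins (snRNPs) and many further proteins. Sm proteins form the ring around the RNA of most snRNPs, SF3A and SF3B are parts of the U2 snRNP that engage the branch point, and U2AF2 binds the polypyrimidine tract upstream of the 3′ splice site. SR proteins bind exonic enhancers and mostly promote exon inclusion, whereas hnRNPs bind nascent RNA broadly and often promote exon skipping. Most of these genes are expressed in all cell types, and their promoters commonly lie in CpG islands.

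The 6 genes that led the ranking by the number of ZFPs with calls in both replicates are shown first with the sequence around one summit each, because the later results return to these sites. The summit is that of the ZFP with the highest lower fold of its 2 replicates, taken from the replicate with the higher fold, and positions are on hg38. At SRSF2 this was GIN1 (chr17:76737466-76737666, minus strand, 235 bp upstream of the canonical TSS), and at HNRNPL it was CISD1 (chr19:38850438-38850638, minus strand, 552 bp upstream). The site of SRSF4 came from G2E3 (chr1:29181901-29182051, minus strand, 51 bp upstream). The sites of the other three came from APEX2. At HNRNPU (chr1:244864035-244864235, minus strand) the summit lay 408 bp downstream, in the coding part of exon 1, and at SF3A2 (chr19:2236402-2236602, plus strand) 322 bp upstream. At both of these genes the strongest peak of replicate 2 lay outside the stretch shown, with its summit 809 and 346 bp away, respectively. At HNRNPF (chr10:43409187-43409280, minus strand) it lay 6 bp downstream, so that the stretch shown ends just before the TSS. Windows of 201 bases were cut where they ran into an untranslated region of a canonical transcript, which shortened SRSF4 to 151 and HNRNPF to 94 bases. Each sequence reads 5′ to 3′ on the strand of the gene, and capitals mark matches, on either strand, to 10 short cores of promoter motifs that are given further on.
SRSF2: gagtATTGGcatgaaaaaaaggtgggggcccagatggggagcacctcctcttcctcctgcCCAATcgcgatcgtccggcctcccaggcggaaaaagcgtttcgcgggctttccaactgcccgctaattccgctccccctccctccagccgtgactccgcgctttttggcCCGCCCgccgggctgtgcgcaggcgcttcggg
HNRNPL: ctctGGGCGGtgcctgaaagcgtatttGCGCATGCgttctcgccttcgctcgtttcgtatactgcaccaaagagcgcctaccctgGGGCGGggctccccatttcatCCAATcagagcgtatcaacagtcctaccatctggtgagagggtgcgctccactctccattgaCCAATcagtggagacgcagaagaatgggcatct
SRSF4: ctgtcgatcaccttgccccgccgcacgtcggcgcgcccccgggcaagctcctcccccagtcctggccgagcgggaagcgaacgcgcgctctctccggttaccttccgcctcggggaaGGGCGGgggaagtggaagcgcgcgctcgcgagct
HNRNPU: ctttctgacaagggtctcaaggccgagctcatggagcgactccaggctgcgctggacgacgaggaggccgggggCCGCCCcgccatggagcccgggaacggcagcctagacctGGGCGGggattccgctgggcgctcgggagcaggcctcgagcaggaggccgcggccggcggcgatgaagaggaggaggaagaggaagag
SF3A2: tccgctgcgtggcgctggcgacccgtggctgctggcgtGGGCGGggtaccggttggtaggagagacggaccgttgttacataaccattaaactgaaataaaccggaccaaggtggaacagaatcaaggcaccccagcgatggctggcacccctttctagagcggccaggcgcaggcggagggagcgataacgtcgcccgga
HNRNPF: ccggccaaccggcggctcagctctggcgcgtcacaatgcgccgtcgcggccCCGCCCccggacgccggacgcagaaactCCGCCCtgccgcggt

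All 6 stretches held GGGCGG, the core bound by SP and KLF factors, on at least 1 strand. SRSF2 and HNRNPL also held CCAAT, the NFY core, with 2 matches each, and HNRNPL held the NRF1 core GCATGCGC. Their GC content ran from 56.2% at HNRNPL to 77.7% at HNRNPF. The sites of SRSF2 and SF3A2 lie in promoters shared with a neighbouring protein-coding gene, MFSD11 and PLEKHJ1, respectively, so that peaks there cannot be told apart between the genes.

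Of the 45 genes, 40 had a peak in at least 1 list, against 55.8% of all protein-coding genes. The other five were SF3B3 and SF3B4, both SF3B subunits, and SNRPB, SNRPB2 and SNRPE, of which SNRPB and SNRPE encode Sm proteins and SNRPB2 a protein of the U2 snRNP. The genes were called for a median of 4 ZFPs, compared with 1 for all genes. There were 18 genes called for at least 5 ZFPs (16.5% of all genes) and 6 called for at least 10 (2.31%). Over all pairs of a gene and a ZFP, 219 of 1620 were called, or 13.5%, compared with 5.62% over all protein-coding genes. A call in both replicates was made for 52 pairs, or 3.21%, compared with 0.93%, and these involved 19 genes (16.7% of all genes). No test was run on these counts, because the genes were named with results known and the lists of a batch share their mock IP.

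The genes have more annotated starts than most, with a median of 8 TSSs against 5. With 1 canonical TSS per gene, 206 pairs or 12.7% were called, against 4.81%. When the background was limited to genes with a peak in some list, the shares were 15.2% and 10.1%. Of the calls, 180 came from lists of replicate 1 and 91 from lists of replicate 2, with median folds of 5.32 and 5.44. With replicate 1 alone, 11.1% of pairs were called, against 4.46% over all protein-coding genes. Replicate 2 alone gave 5.62%, against 2.10%, so the lower number of calls in replicate 2 is not particular to these genes.

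**Figure D1:**
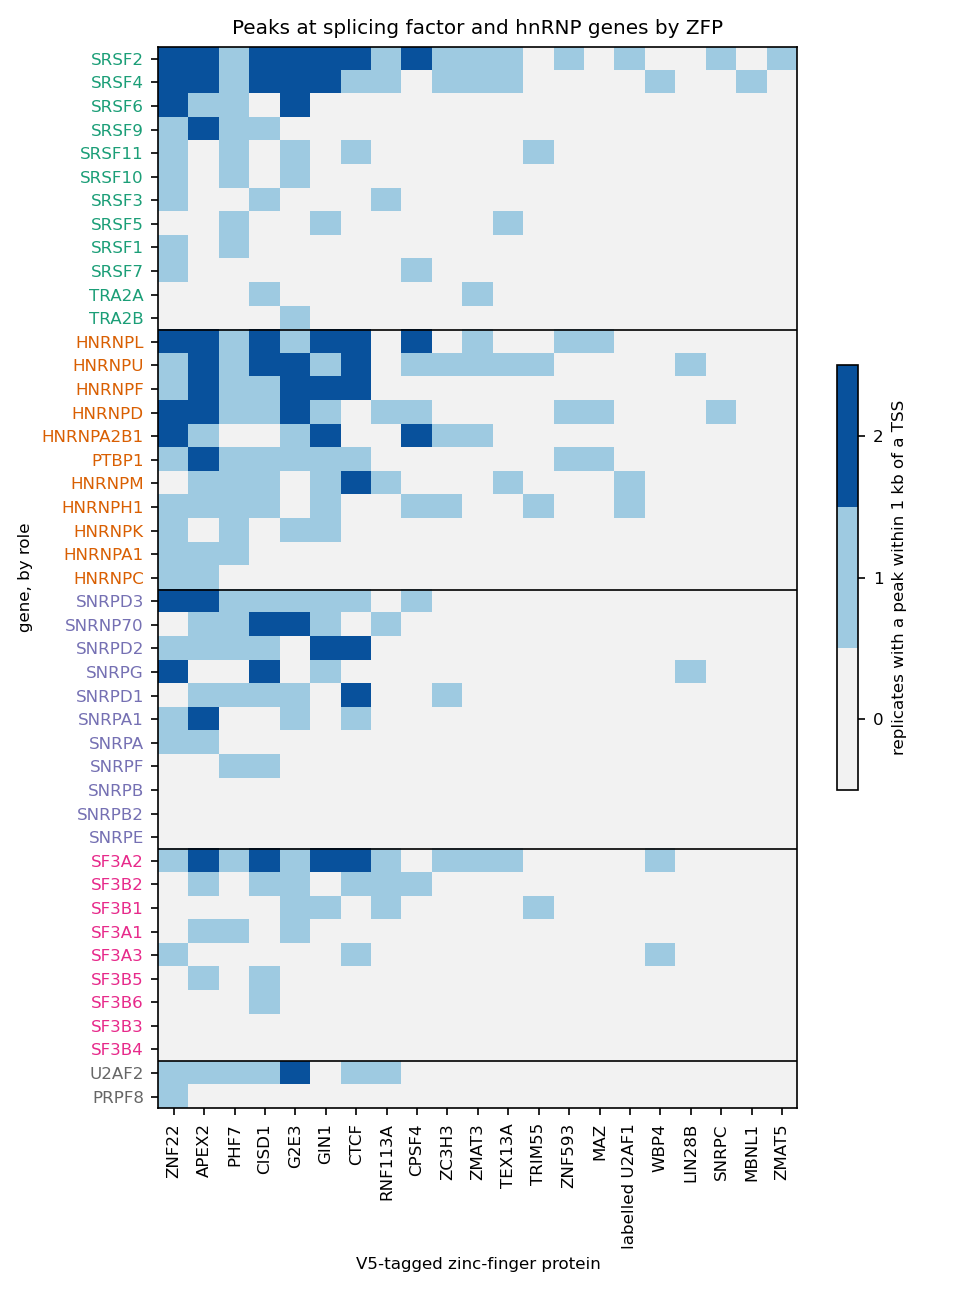
Each row is a gene, coloured and separated by role (green SR, orange hnRNP, purple Sm and snRNP, pink SF3A and SF3B, grey other), each column a ZFP with at least 1 gene called, and the shade gives the replicates (0, 1 or 2) with a peak within 1 kb of a TSS. The 7 leftmost ZFPs hold 157 of the 219 filled cells, and the rows of SRSF2 and SRSF4 reach farthest to the right.

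Calls were unevenly spread over the ZFPs. The 7 ZFPs with the most genes, ZNF22, APEX2, PHF7, CISD1, G2E3, GIN1 and CTCF, held 157 pairs, or 71.7%, and the next 14 ZFPs held 62. The same 7 ZFPs also had the highest shares of all protein-coding genes called, from 13.5% for CTCF to 27.6% for CISD1. The highest share among the other ZFPs was 8.11%, for CPSF4, so the uneven spread is not particular to the 45 genes. None of the 45 genes was called for the remaining 15 ZFPs, BRCA1, CNBP, CNOT4, CPSF4L, GTF3C4, NANOS2, RBM5, RNF14, SALL4, ZFP36L1, ZNF2, ZNF317, ZNF574, ZNF706 and ZNF800. Their lists held 131 to 896 peaks. Among lists of similar length, replicate 2 of MBNL1, with 289 peaks, held 1 gene and replicate 1 of WBP4, with 509, held 3. The other lists of these ZFPs, with 141 peaks for MBNL1 and 452 for WBP4, held none. Whether list length accounts for the absence of calls was not tested. The 0 of 675 pairs stand against 0.29% over all genes for the same ZFPs. A share like that of all genes could thus not be seen among 45 genes.

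ZNF22, a C2H2 zinc-finger protein, had 28 genes called (62.2%), against 25.8% of all genes. Replicate 1, with 6125 peaks, gave 27 genes (24% of all genes) and replicate 2, with 1836, gave 9 (6.66%). The 8 genes called in both replicates (4.8%) were led by SNRPD3, an Sm protein, with folds of 6.30 and 6.15, SRSF2 with 8.63 and 6.06, and HNRNPA2B1 with 9.69 and 5.61. APEX2, an endonuclease of base excision repair, had 25 genes called (27%), 21 in replicate 1 (18.9%) and 15 in replicate 2 (16.4%). Its 11 genes in both replicates (8.33%) were the most of any ZFP. HNRNPF led them with folds of 6.36 and 9.59, followed by HNRNPU with 7.0 and 5.73, at summits 809 bp apart, and SRSF2 with 5.73 and 6.23.

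PHF7 differed from these in its replicates. Replicate 1, with 6284 peaks, gave 24 genes (22.9%), replicate 2, with 729 peaks, gave SNRPD3 alone (1.71%), and no gene was called in both (1.13%). Its 25 genes in either replicate (23.5%) therefore rest on replicate 1, in which SRSF2 had a fold of 11.4. CISD1, an iron-sulfur protein of the outer mitochondrial membrane, had 23 genes (27.6%), all of them in replicate 1 (25.4%) and 7 also in replicate 2 (7.05%), so 7 in both (4.82%). Of these, HNRNPL had folds of 5.99 and 5.39, SRSF2 7.08 and 5.09, and SRSF4 5.08 and 7.27.

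G2E3, an E3 ubiquitin ligase, was called at 22 genes (21.6%) and, unlike the ZFPs above, at more in replicate 2, with 18 (14.8%), than in replicate 1, with 12 (12%). SRSF4 led the 8 genes in both replicates (5.15%) with folds of 6.39 and 6.94, followed by SRSF2 with 6.31 and 7.33 and SNRNP70, a U1 snRNP protein, with 7.28 and 5.84. GIN1, which derives from a retrotransposon integrase, had 18 genes (13.9%), 14 in replicate 1 (10.5%), 11 in replicate 2 (5.71%) and 7 in both (2.37%). The highest lower fold of all 52 pairs was that of GIN1 at SRSF2, with 6.55 and 6.84. SRSF4 had 5.46 and 6.55 and HNRNPF 4.91 and 5.44. CTCF, the insulator protein, had 16 genes (13.5%), all of them in replicate 1 (10.9%) and 8 in replicate 2 (6.1%), which were thus the 8 in both (3.5%). SNRPD1, an Sm protein, stood out among them with folds of 7.29 and 6.14 and summits at the canonical TSS and 51 bp downstream of it. SRSF4, with a fold of 11.4 in replicate 1 of CTCF, was not called in replicate 2.

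**Figure D2:**
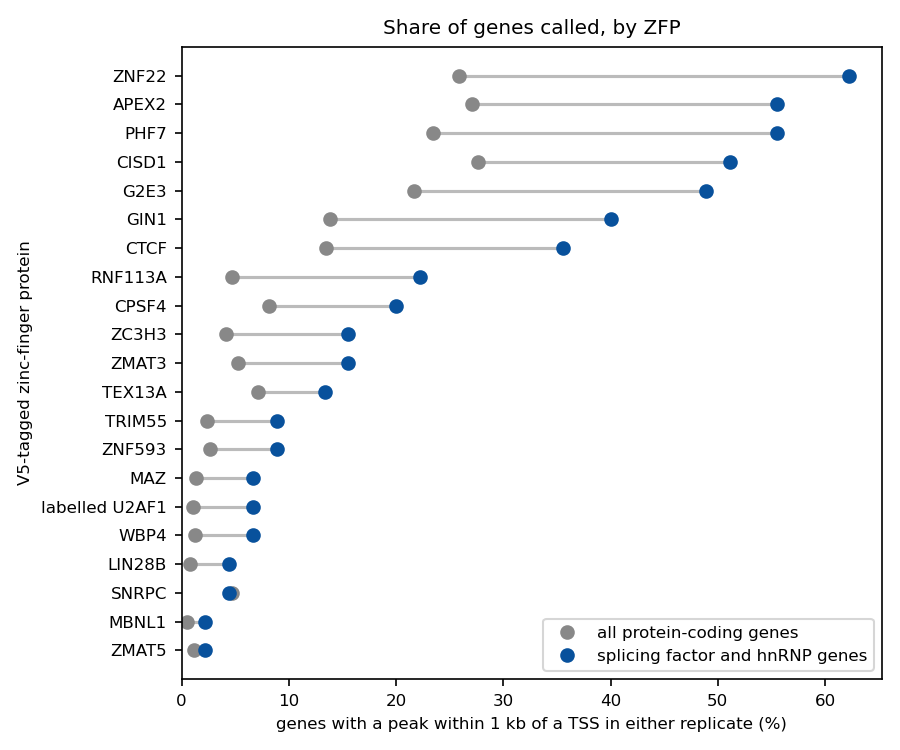
The share of the 45 genes (blue) and of all protein-coding genes (grey) with a peak within 1 kb of a TSS in either replicate is plotted in percent for the 21 ZFPs with at least 1 of the genes called. The blue point lies to the right of the grey one for 20 ZFPs, from ZNF22 with 62.2% against 25.8% down. It lies to the left for SNRPC, with 4.44% against 4.72%. A single gene called already gives 2.22%, above the share of all genes for ZFPs such as MBNL1 (0.479%) and ZMAT5 (1.18%). Such points could only fall to the right, and the 15 ZFPs without a gene called are not drawn.

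Several of the transfected ZFPs are themselves known for roles in splicing, and their lists were looked at in turn, with the share of all genes called in either replicate in parentheses. RNF113A, a ubiquitin ligase of the activated spliceosome, had 10 genes called (4.68%), 9 in replicate 1 and 1 in replicate 2, and none in both. Those of replicate 1 were HNRNPD, SF3A2, SF3B1, SF3B2, SNRNP70, SRSF2, SRSF3, SRSF4 and U2AF2, and that of replicate 2 was HNRNPM. The calls of SF3B1 and SRSF3 rest on narrow peaks far inside the genes, absent from replicate 2 and described further on, so that 8 genes remain without them. ZMAT3, an RNA-binding protein, had 7 genes (5.3%), with HNRNPA2B1 in replicate 2 and the others in replicate 1. WBP4, which binds proline-rich splicing factors, had 3 genes (1.21%), SF3A2, SF3A3 and SRSF4, all in replicate 1. SNRPC, a U1 snRNP protein, had HNRNPD and SRSF2 in replicate 1, or 4.44%, and was the only one of the 21 ZFPs below its share of all genes (4.72%). With canonical TSSs alone it was not below, since its 2 genes stood against 4.06%. MBNL1, a regulator of alternative exons, had SRSF4 (0.479%) and ZMAT5, of the minor spliceosome, had SRSF2 (1.18%), each in replicate 2. RBM5, a regulator of alternative splicing, had none. The libraries labelled U2AF1 had 3 genes (1.11%), HNRNPH1, HNRNPM and SRSF2, all in replicate 2. These libraries had 0 peaks on exons of U2AF1 in either replicate but 7 and 7 on exons of USP39, another spliceosome gene, with highest folds of 2716 and 3226, so their label is in doubt. None of these ZFPs had a gene called in both replicates, but neither did most genes, with 0.0923% of pairs called over all genes for the same ZFPs, so a share like that of all genes could not be seen among 45 genes.

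The remaining ZFPs gave fewer genes than CTCF. CPSF4, a subunit of the mRNA cleavage and polyadenylation factor, had 9 genes (8.11%), and HNRNPA2B1, HNRNPL and SRSF2 were called in both of its replicates (0.928%). ZC3H3 had 7 genes (4.14%), all in replicate 1, and its replicate 2 held 15 peaks in all. TEX13A had 6 genes (7.15%), ZNF593 4 (2.61%), MAZ 3 (1.31%) and LIN28B 2 (0.748%). TRIM55 had 4 genes (2.39%), all in replicate 2 and with folds of 1.99 to 2.00, and the 1 peak of ZMAT5 also had a fold of 2.00. These were the lowest folds at any of the 45 genes, since the other lists started at 3.43. Apart from CPSF4, none of these ZFPs had a gene called in both replicates (0.169% of pairs over all genes).

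SRSF2 was called for the most ZFPs of all 45 genes. It encodes an SR protein that activates exons and lies on chromosome 17. It was called for 16 ZFPs, and for 7 of them in both replicates. Without the 6 ZFPs for which the study tabulates no Cut&Run target genes, it was called for 12. The 23 lists with a peak, 12 of replicate 1 and 11 of replicate 2, had folds from 2.00 to 11.4 with a median of 6.06. Besides GIN1, ZNF22, G2E3, APEX2 and CISD1, both replicates of CPSF4 had a peak, with folds of 5.09 and 4.87, and so did those of CTCF, with 4.22 and 5.60. PHF7, RNF113A, SNRPC, TEX13A, ZC3H3, ZMAT3, ZMAT5, ZNF593 and the libraries labelled U2AF1 had a peak in 1 replicate. Summits were spread over both sides of the canonical TSS, from 1083 bp upstream to 969 bp downstream, 17 of 28 upstream.

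SRSF4, another SR protein, showed the opposite arrangement, with all 18 summits between 214 bp upstream and 297 bp downstream of its TSS on chromosome 1. It was called for 13 ZFPs, in both replicates of 5, and no second protein-coding gene has a TSS within 1 kb of these peaks. Folds ran from 4.62 in replicate 2 of MBNL1 to 11.4 in replicate 1 of CTCF, with a median of 6.47. The both-replicate folds not yet given were 5.55 and 6.86 for APEX2 and 7.08 and 5.56 for ZNF22.

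The remaining SR genes were called for far fewer ZFPs. SRSF6 (4 ZFPs) was called in both replicates of G2E3, with folds of 4.15 and 5.70, and of ZNF22, with 4.60 and 5.81. Neither of these pairs had overlapping peaks, with summits 551 and 948 bp apart. SRSF9 (4 ZFPs) was called in both of APEX2, with 3.79 and 5.22. SRSF11 was called for 5 ZFPs, SRSF3, SRSF5 and SRSF10 for 3 each, SRSF1, SRSF7 and TRA2A for 2 each and TRA2B for 1, none of them in both replicates. At SRSF11, 3 of 6 peaks lay more than 15 kb upstream of the canonical TSS, at the start of longer transcripts and within 1 kb of a TSS of LRRC40. Over the 12 SR genes, 58 of 432 pairs (13.4%, against 5.62% over all genes) were called, 15 in both replicates (3.47%, against 0.93%).

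Of the roles, the hnRNP genes had the highest share of pairs called, with 84 of 396 (21.2%, against 5.62% over all genes). Of these pairs, 22 were called in both replicates (5.56% of all 396, against 0.93%). Among the 11 genes, 8 were called for at least 5 ZFPs (16.5% of all genes). The hnRNP genes also had the most TSSs, with a median of 19. With canonical TSSs alone their share of pairs was 19.4%, against 4.81%. HNRNPL, which binds CA repeats, was called for 11 ZFPs and in both replicates of 6. Its folds over 17 lists ran from 3.56 in replicate 2 of MAZ to 7.82 in replicate 1 of ZNF22, with a median of 5.08. ZNF22 had 4.92 in replicate 2, GIN1 7.05 and 4.24, CTCF 5.37 and 4.09, CPSF4 4.94 and 4.16 and APEX2 4.05 and 5.53, so replicate 1 had the higher fold for each of these except APEX2. A total of 18 of its 20 summits lay upstream of the TSS, with a median of 461.5 bp upstream. The NRF1, NFY and SP/KLF cores printed above lie among these summits.

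HNRNPU, or scaffold attachment factor A, was called for 13 ZFPs, in both replicates of 4. CISD1 had folds of 7.58 and 4.13, CTCF 4.01 and 7.76 and G2E3 4.63 and 5.55, beside the values of APEX2. Both lists of CISD1 and G2E3, replicate 1 of GIN1, replicate 2 of APEX2 and replicate 2 of TRIM55 had summits 1088 to 1290 bp downstream of the canonical TSS, whereas both summits of CTCF lay 96 and 155 bp upstream. HNRNPF, which binds G tracts, was called for 7 ZFPs and in both replicates of 4. Its folds over 11 lists ran from 4.21 to 9.59, and the 8 peaks of the both-replicate pairs with the highest fold of their list had summits between 86 bp upstream and 289 bp downstream. CTCF had 4.21 and 5.03 there and G2E3 5.81 and 7.96. HNRNPD, or AUF1, which binds AU-rich elements, was called for 11 ZFPs, in both replicates of APEX2 (5.44 and 4.87), G2E3 (3.59 and 5.64) and ZNF22 (5.31 and 5.02). HNRNPA2B1 was called for 7 ZFPs, in both replicates of ZNF22, GIN1 (4.8 and 5.90) and CPSF4 (5.09 and 5.68). The peaks of GIN1 and CPSF4 did not overlap between replicates, with summits 737 and 531 bp apart, and the promoter is shared with CBX3.

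PTBP1, the polypyrimidine tract binding protein, and HNRNPH1 were each called for 9 ZFPs and HNRNPM for 8. PTBP1 was called in both replicates of APEX2 (4.35 and 6.04), HNRNPM in both of CTCF (5.50 and 5.25), and HNRNPH1 in both replicates of no ZFP. HNRNPK was called for 4 ZFPs, HNRNPA1 for 3 and HNRNPC for 2, all in 1 replicate.

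**Figure D3:**
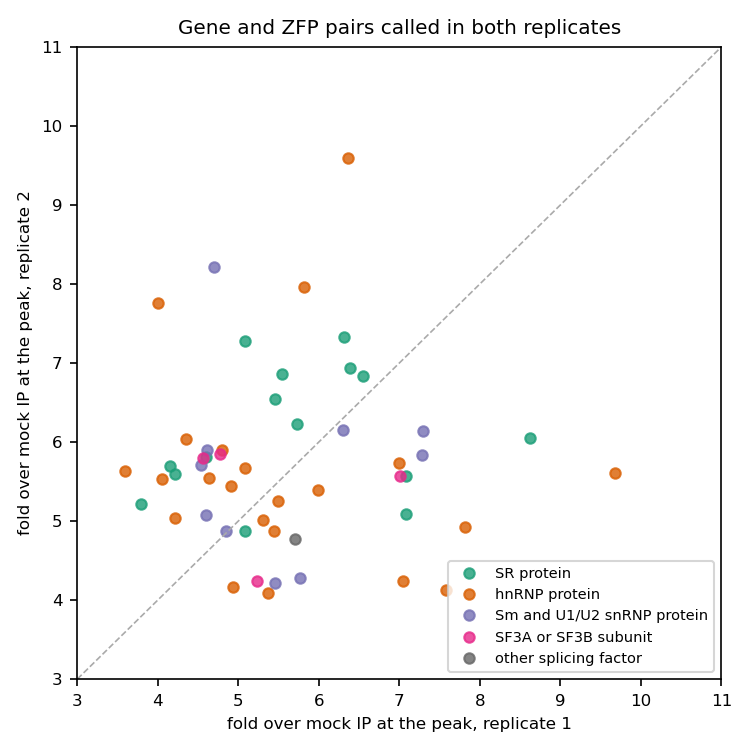
Each point is 1 of the 52 pairs of a gene and a ZFP with a call in both replicates, with the fold over the mock IP in replicate 1 on the x axis and in replicate 2 on the y axis, coloured by the role of the gene, and the dashed line marks equal folds. The lower fold of a pair lies between 3.59 and 6.55, and points fall on both sides of the line.

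Among the Sm and U1 or U2 snRNP genes 38 of 396 pairs (9.60%, against 5.62% over all genes) were called, 10 in both replicates (2.53%, against 0.93%). Of the 38 pairs, 34 belonged to the 7 leading ZFPs, which also had the highest shares of all protein-coding genes called. SNRPD3, which shares its promoter with GUCD1, was called for 8 ZFPs, with folds from 4.21 to 8.21 and all 10 summits upstream of the TSS. Both replicates of APEX2 had a peak there, with 4.70 and 8.21. SNRNP70 was called for 6 ZFPs. Its G2E3 peaks overlapped, with summits 16 bp apart, whereas the 2 peaks of CISD1, with folds of 5.76 and 4.28, lay 17243 bp apart at different TSSs. SNRPD2, another Sm protein, was called for 6 ZFPs, in both replicates of CTCF (4.62 and 5.90) and GIN1 (5.46 and 4.22). SNRPG, which is part of the Sm ring, was called in both replicates of CISD1 (4.53 and 5.71) and ZNF22 (4.60 and 5.08), with summits 3 and 24 bp apart, the first of these the closest of all pairs. SNRPA1, a U2 snRNP protein, was called in both of APEX2 (4.85 and 4.87). SNRPD1 was called for 6 ZFPs, and SNRPA and SNRPF for 2 each.

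SF3A2, which connects SF3A to the U2 snRNP, was the leading gene of the SF3 group, with 12 ZFPs and both replicates of 4. APEX2 had folds of 7.0 and 5.57, CISD1 5.23 and 4.25, CTCF 4.56 and 5.8 and GIN1 4.77 and 5.85. The peaks of APEX2 and of CISD1 did not overlap between replicates, with summits 346 and 344 bp apart. All 16 summits lay 120 to 668 bp upstream of the TSS, towards PLEKHJ1. The other SF3 genes were called in both replicates of no ZFP, with SF3B2 called for 6 ZFPs, SF3B1 for 4, SF3A1 and SF3A3 for 3, SF3B5 for 2 and SF3B6 for 1. Over the group 31 of 324 pairs (9.57%, against 5.62% over all genes) were called, 4 in both replicates (1.23%, close to the 0.93% of all genes). U2AF2 was called for 7 ZFPs, in both replicates of G2E3, with folds of 5.70 and 4.78 at summits 4199 bp apart. PRPF8, at the catalytic centre of the spliceosome, was called for ZNF22 alone, with a fold of 5.87 in replicate 2.

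Of the 52 pairs called in both replicates, 38 had peaks that overlapped, and the strongest summits of the replicates were a median of 178 bp apart. The same values over all protein-coding genes are not given here, so these describe the 52 pairs only. Peaks did not overlap for APEX2 at PTBP1 and SF3A2, CISD1 at SF3A2 and SNRNP70, or CPSF4 at HNRNPA2B1, HNRNPL and SRSF2. The same held for CTCF at HNRNPF and SNRPD2, G2E3 at SRSF6 and U2AF2, GIN1 at HNRNPA2B1 and SNRPD2, and ZNF22 at SRSF6. None of the 52 pairs had a lower fold of at least 10, and the median was 4.86. The 167 pairs called in 1 replicate had a median fold of 5.18.

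Taken over all 297 peaks at the genes, the median summit lay 123 bp upstream of the canonical TSS, while that of peaks at all protein-coding genes lay 13 bp downstream. A TSS was covered by 160 peaks (53.9%, against 48.9%), 141 summits (47.5%, against 45.3%) lay within 250 bp of the canonical TSS, and 116 (39.1%, against 51.0%) lay at or downstream of it. Against the canonical transcript, 180 summits lay upstream, 59 in exon 1 and 41 in intron 1. The median fold of 5.23 was close to the 5.08 over all genes. A TSS of a second protein-coding gene lay within 1 kb of 106 peaks (35.7%, against 31.7%).

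**Figure D4:**
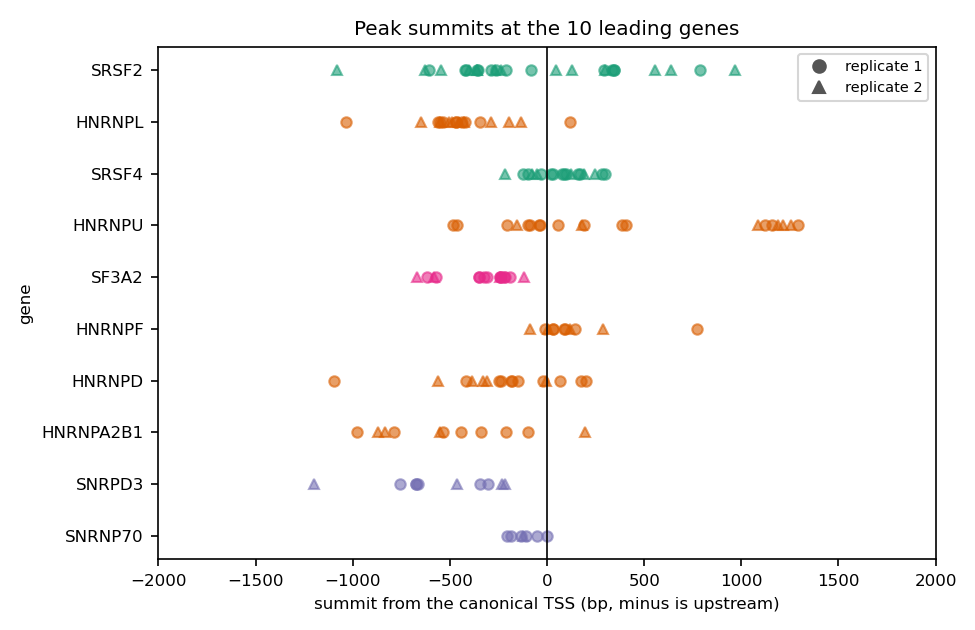
Positions of peak summits relative to the canonical TSS (in bp, minus is upstream) are plotted for the 10 genes that led the ranking, with circles for replicate 1 and triangles for replicate 2 and colours by role. Summits beyond 2000 bp are not drawn (1 of 20 at HNRNPL, 2 of 13 at HNRNPF and 1 of 8 at SNRNP70), those of SRSF4 gather between 214 bp upstream and 297 bp downstream, and those of SF3A2 and SNRPD3 all lie upstream.

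The highest folds among the peaks within 1 kb of a TSS of the genes came from 1 list and lay away from the canonical starts. In replicate 1 of RNF113A, a peak of 164 bp in intron 4 of SF3B1 (chr2:197418820-197418983) had a fold of 28.9, a peak of 171 bp in intron 3 of SRSF3 (chr6:36600236-36600406) had 21.9, and a peak of 158 bp in intron 5 of U2AF2 (chr19:55661799-55661956) had 20.3. Their summits lay 16133, 5965 and 6840 bp downstream of the canonical TSS, respectively, and they were called because other transcripts of the genes start nearby. No peak of any of the other lists overlapped them, replicate 2 of RNF113A included. The other peaks of RNF113A within 1 kb of a TSS of the genes had folds of 4.05 to 6.21, and its narrow peaks inside SNRPB and SNRNP70, farther from any TSS, are described at the end. Whether these peaks reflect binding by RNF113A was not tested. With canonical TSSs alone RNF113A had 8 genes called, against 3.83% of all genes.

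**Figure D5:**
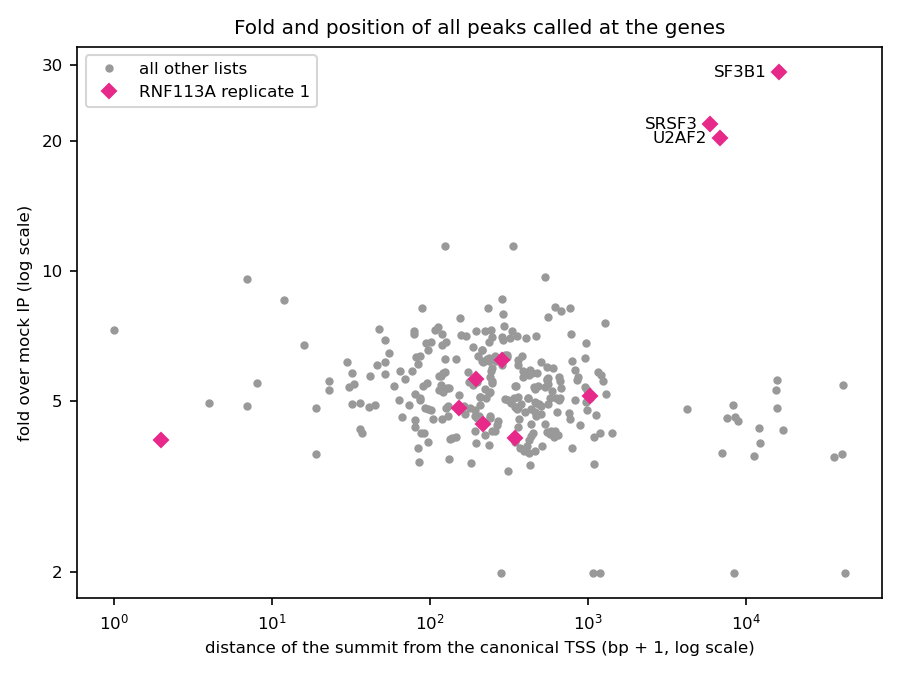
All 297 peaks called at the genes are plotted by the distance of the summit from the canonical TSS (x axis, bp + 1, log scale) and by the fold over the mock IP (y axis, log scale), with those of RNF113A replicate 1 as pink diamonds. The peaks in SF3B1, SRSF3 and U2AF2, with folds of 20.3 to 28.9, stand above all others, which end at 11.4.

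Promoter windows of 300 bases (250 before and 50 after the start) from RefSeq on GRCh38.p14 matched 40 of the 45 genes. HNRNPA1, SF3B3, SNRPD1, SRSF2 and TRA2A had no entry. The median GC content was 62.2%, against 62.7% for 15843 protein-coding promoters, and was 66.8% in the 16 genes called for at least 5 ZFPs and 61.8% in the other 24. The ratio of observed to expected CpG had a median of 0.952, against 0.763. The ETS core CCGGAA was found in 18 of 40 windows (45.0%, against 22.9%), among them HNRNPD, HNRNPF, SF3A2 and SRSF4. The CREB core TGACGT was found in 8 (20%, against 9.67%), including HNRNPA2B1, SRSF1 and SRSF3. GGGCGG was in 24 (60.0%, against 58.5%), 12 of the 16 with calls for at least 5 ZFPs and 12 of the other 24. CCAAT was in 13 (32.5%, against 36.4%). The remaining cores were rare in both sets, with AAGATGGC, the YY1 core, in 3 windows (7.50%, against 3.91%), GCATGCGC in 2 (5.00%, against 4.26%), and TCTCGCGA, the ZBTB33 core, in 2 (5.00%, against 1.75%). The ZNF143 core ACTACA was in 4 (10.0%, against 8.51%), TATAAA in 4 (10.0%, against 9.63%) and CACGTG, bound by MYC and USF, in 3 (7.50%, against 8.88%). Both strands were searched, the cores were counted independently of each other, and a match describes letters and not a bound site.

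Other genes of the same machinery gave lower counts. A list of 127 further spliceosome and hnRNP genes had 413 of 4572 pairs called (9.03%), 67 in both replicates (1.47%), and a median of 2 ZFPs per gene. ACIN1, which encodes a protein associated with the exon junction complex, was called for 11 ZFPs and KHSRP, a splicing and decay factor, for 10, each in both replicates of 7. KHDRBS1, or SAM68, was called for 12, in both of 4. For comparison, 79 ribosomal protein genes had 7.14% of pairs called and 39 proteasome subunit genes 5.41%, the latter below the 5.62% of all genes.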

How the data were processed

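Cut&Run was analysed for 36 V5-tagged ZFPs with 2 replicates each, and the mock IP samples served as the controls of the peak caller. Per the labels and methods, the authors used Trimmomatic 0.36 for trimming, Bowtie2 2.3.5.1 for alignment to hg38 (fragment length 10 to 700 bp), Picard against PCR duplicates and MACS2 2.2.7.1 for narrow peaks of each library with the same-batch mock IP as control, at an FDR of 0.05. The deposited fold is a ratio over that mock IP, and the deposited −log10 q-value was turned back into q. Lists of one batch share a control, which libraries formed a batch is not known here, and peak numbers are given because read totals are unknown.

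Peak edges were set against all GENCODE 44 TSSs with a limit of 1 kb, and replicate lists were joined, using Python 3.11.15, pandas 2.3.3 and scipy 1.17.1. In simulated data, 987 of 987 genes called by bedtools 2.31.1 were recovered. The genes and lists were chosen with earlier results of these data known, so counts are descriptions and no test was made. Values are given for the 10 genes called in both replicates for the most ZFPs (ties by ZFPs in either replicate, then by the best lower fold) and for the 3 genes with the highest lower fold of each leading ZFP. Genes called in both replicates outside this rule and the peaks of RNF113A were named after their values were seen. Alternatives changed the q-value limit, the distance, the TSSs, the replicates and the ZFPs used.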

Additional observations from a re-analysis of the deposited data

How the results depend on the processing

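Of 61 alternative values of the 5 counts over the 45 genes, 55 lay within 1.5 times the reported count. With peaks at a q-value of at most 0.001, 141 pairs were called and 19 in both replicates. With a single replicate used for every ZFP, pairs called ranged from 91 to 180, genes called for at least 5 ZFPs from 5 to 17, genes called in at least 1 list from 29 to 38, and ZFPs with a higher share of the 45 genes than of all genes from 16 to 18. The lower value of the first 3 ranges was that of replicate 2 alone, which for PHF7, for example, left 1 of 25 genes. Calls in both replicates alone left 3 genes at 5 or more ZFPs and 7 ZFPs with a higher share. The share of pairs called stayed above that of all genes under each alternative, with ratios of 1.51 (background of genes with a peak) to 3.45 (both replicates). Leaving out the libraries labelled U2AF1 gave 216 pairs and leaving out replicate 1 of RNF113A gave 210, both chosen after seeing the data. Without CPSF4, MBNL1, SNRPC, TRIM55, ZC3H3 and ZMAT5, 6 ZFPs for which the study tabulates no Cut&Run target genes, 195 pairs were called, 49 of them in both replicates, and 15 ZFPs had a higher share. No paired analysis was possible because no result comes from a test. Read depth is unknown, and few genes of any kind were called for the 15 ZFPs without a gene, which limits what could be seen there.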

Other observations

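Inside the 45 genes but beyond 1 kb of any of their TSSs lay 14 peaks of 10 lists, at 7 genes, with a median fold of 4.12. The highest 2 were again from replicate 1 of RNF113A and were found after the values were seen. A peak of 167 bp in SNRPB (chr20:2467115-2467281), which had no call near a TSS, had a fold of 36.1, and a peak of 170 bp in SNRNP70 (chr19:49103553-49103722) had 23.2. Both lay off the exons of the genes' canonical transcripts and on exons that occur in transcripts annotated as targets of nonsense-mediated decay or as retaining an intron. Exons of this kind, which lower the level of the gene's own product, are known from many splicing factor genes. Replicate 1 of RNF113A held 57 peaks of at most 200 bp with a fold of at least 14, the most of any list, followed by 28 in replicate 1 of MBNL1. Of the 57, 52 overlapped an exon of a protein-coding gene, 33 an exon of a canonical transcript, 4 a peak of replicate 2 and 19 a peak of any other list. The 5 peaks at the genes described here (SNRPB, SF3B1, SNRNP70, SRSF3 and U2AF2) overlapped no peak of another list. The source of these peaks was not tested.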
